A study of Mus musculus with 28 samples.

Results

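The 9 genes described here mark the oligodendrocyte lineage, the cells that make myelin in the central nervous system. They were taken by name, from a list of myelin and oligodendrocyte genes, and their mouse symbols were matched to Ensembl identifiers in the GRCm38 genome. The rule used no threshold on a measured value, but earlier results of these data were known when the genes were chosen. They are 9 of the 53341 gene identifiers that the 3 count tables share. All 9 had at least 79 counts in every library and passed the filter on low counts in every comparison. The myelin genes are Mbp, Mog, Mag, Mobp, Cnp, Cldn11 and Opalin. Olig2 encodes a transcription factor of the whole lineage, and Pdgfra encodes the growth factor receptor of its precursor cells.

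Oligodendrocyte precursor cells divide in response to platelet-derived growth factor, which binds the receptor encoded by Pdgfra. They pass through a short premyelinating stage and then become oligodendrocytes, which switch off Pdgfra and switch on the genes for the proteins and lipids of the sheath. In the mouse cortex this takes place largely after birth, during the weeks of the ages studied here. Within the sheath, Mbp and Mobp encode basic proteins that hold the membrane layers together on the cytoplasmic side, Mog and Mag encode immunoglobulin-like proteins of the outermost and innermost layers, Cnp encodes an enzyme bound to the cytoskeleton of the non-compact channels, Cldn11 encodes the claudin of the tight junctions between the layers, and Opalin encodes a small membrane glycoprotein.

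The study deleted a gene from astrocytes and asked how the cortex responded. Bulk RNA-Seq was done on flash-frozen cerebral cortex of C57BL/6J mice at postnatal day 24 (P24; 4 cKO and 4 Ctrl mice) and at P17 (4 cKO and 4 Ctrl mice). In cKO mice mGFAP-Cre acted on alleles flanked by loxP sites, and the Ctrl mice were littermates of the same sex whose genotypes are given as loxP/loxP or loxP/+. Translating ribosome affinity purification (TRAP-Seq) was done at P24 in 3 cKO and 3 Ctrl mice, with an Input library from the cortical lysate and an IP library from each mouse. The IP fraction is the RNA that came down with ribosomes tagged by an EGFP/Rpl10a fusion protein. The tag depends on Cre and so is made in the cells where mGFAP-Cre is active, so the TRAP-Seq Ctrl mice would carry the driver too, although no separate genotype is given for them. The driver defines astrocytes only as far as its expression does. Each library came from 1 mouse, so p-values between genotypes or ages measure the spread between mice. The main tests that compare Input with IP take both libraries of a mouse as independent. A fit with the replicate number as a block, taken to be the mouse, is an alternative.

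Levels are in CPM, the counts of a gene scaled to a common library total after adjustment with the trimmed mean of M-values (TMM). Differences are log2 fold changes (log2FC) with the standard error (SE) from edgeR's two-sided quasi-likelihood test, and a gene is called changed where its p, adjusted by Benjamini-Hochberg across every tested gene, is under 0.05. The share of all tested genes that were called is given as the background beside the first count of members in a comparison, and again where genes of other lists are counted. The exact two-sided permutation test cannot give a p under 0.0286 with 4 mice against 4, or under 0.1 with 3 against 3. In bulk tissue, fewer cells of a type and less RNA per cell cannot be told apart.

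Bulk libraries held between 8855466 and 14575302 counts and TRAP-Seq libraries between 18433080 and 27242436. A floor of 3 counts is worth at most 0.339 CPM, and this floor covers counting error only. The summed levels of neuron markers lay between 5270 and 6340 CPM in bulk cortex. The sums of choroid plexus markers, a tissue outside the cortex, ran from 4.94 to 544 CPM and those of striatum markers from 80.4 to 331 CPM. The lowest choroid plexus sums were those of library 1 of both P24 groups.

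The promoters of Mobp, Opalin and Pdgfra are shown because these were the members that changed with age in Ctrl cortex. They were read from RefSeq (GRCm38.p6), where 8 of the 9 members have an entry. The stretches end before the annotated start of the gene and are written 5′ to 3′ on the strand of the gene. Capitals mark ACAAAG or its reverse complement CTTTGT, letters that Sox proteins such as Sox10, a regulator of myelin genes, are known to bind and that overlap the CTTTG core of the Tcf/Lef family.
Mobp, chr9:120149492-120149706, plus strand: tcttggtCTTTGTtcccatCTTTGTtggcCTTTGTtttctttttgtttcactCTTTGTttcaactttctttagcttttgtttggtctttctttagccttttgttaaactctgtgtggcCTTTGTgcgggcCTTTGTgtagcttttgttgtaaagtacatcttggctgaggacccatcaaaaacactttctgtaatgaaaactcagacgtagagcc
Opalin, chr19:41077114-41077363, minus strand: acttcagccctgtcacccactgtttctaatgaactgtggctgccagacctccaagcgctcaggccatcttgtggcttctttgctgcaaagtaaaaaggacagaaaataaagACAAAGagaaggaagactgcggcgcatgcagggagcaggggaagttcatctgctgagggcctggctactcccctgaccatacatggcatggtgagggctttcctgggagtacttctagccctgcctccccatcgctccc
Pdgfra, chr5:75152001-75152250, plus strand: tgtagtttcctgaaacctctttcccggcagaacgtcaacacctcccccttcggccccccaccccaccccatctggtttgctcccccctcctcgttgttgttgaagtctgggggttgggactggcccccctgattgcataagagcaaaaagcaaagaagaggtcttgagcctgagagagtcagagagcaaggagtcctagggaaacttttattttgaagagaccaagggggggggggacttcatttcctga
The Mobp stretch held these letters 6 times, all as CTTTGT, and the Opalin stretch 1 time, as ACAAAG. They were not in the Pdgfra stretch. In the 250 bases before the start, 1 match stood in Mag and 1 in Cnp, and none in Mog, Cldn11 or Olig2. Of all 32851 RefSeq promoter entries, 16.5% held at least 1 match on either strand in those 250 bases, and 1 entry, that of Mobp, held 6 or more. A match is a description of the letters and does not show binding.

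In the GENCODE annotation of GRCm38, the members lie on 9 chromosomes: Mbp at chr18:82475146-82585637, Mog at chr17:37010743-37023398, Mag at chr7:30899176-30914873, Mobp at chr9:120149707-120181484, Cnp at chr11:100574904-100591729, Cldn11 at chr3:31149920-31164324, Opalin at chr19:41061710-41077113, Olig2 at chr16:91225457-91228677 and Pdgfra at chr5:75152292-75198215. The counts are over the exons of a gene and do not tell its transcripts apart, so that for Mbp they also take in the Golli transcripts of the same gene. Mobp shares 79 exonic bases with Gm38642 on its own strand. Cnp shares 154 bases with Dnajc7 on the opposite strand, and Pdgfra shares 456 and 166 bases with Gm42802 and Gm42803 on the opposite strand. The strand setting of the counting is not given in the sources used here, so reads in those stretches cannot be assigned to a gene with certainty.

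Per kilobase of exon, Mbp was the most abundant member in bulk cortex of Ctrl mice. At P17 it stood at 234 ± 23.0 CPM per kb (SD, n = 4), followed by Cnp at 107, Cldn11 at 91.2, Mobp at 71.7, Mag at 49.1, Mog at 26.9, Olig2 at 8.60, Pdgfra at 6.04 and Opalin at 3.02. The ranges of Cnp and Cldn11 and those of Cldn11 and Mobp overlapped, so these neighbours were not separated by the mice measured. At P24 the order was Mbp at 242 ± 32.4, Cldn11 at 105, Cnp at 99.0, Mobp at 94.7, Mag at 49.1, Mog at 30.9, Olig2 at 10.1, Pdgfra at 5.09 and Opalin at 4.30 CPM per kb, with overlap between Cldn11 and Cnp, between Cnp and Mobp, and between Pdgfra and Opalin. The place of Mobp depended on the length used, and it stood at rank 2 in Ctrl bulk cortex when coding length or the longest transcript replaced the exon length.

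**Figure D1:**
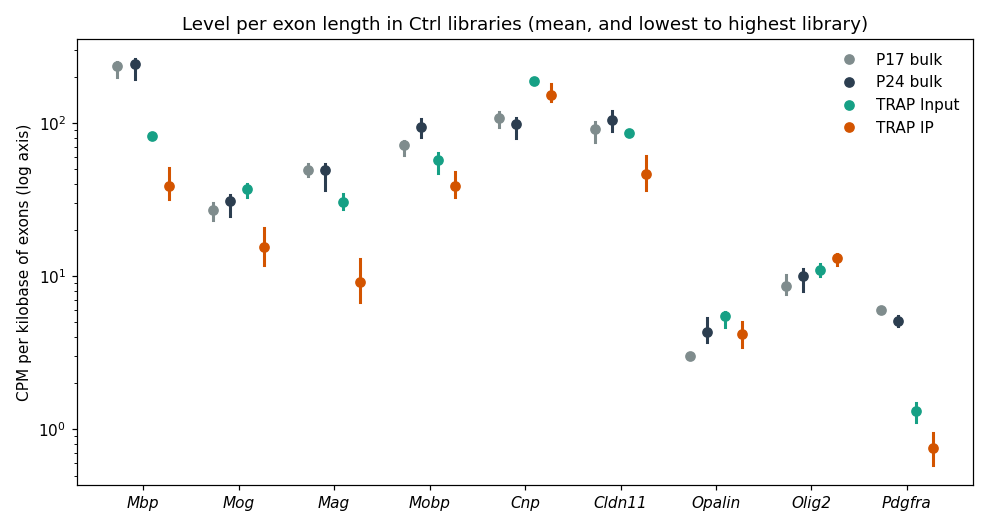
Level per exon length of the 9 members in the groups of Ctrl mice, in CPM per kb on a log axis. Points are means and bars run from the lowest to the highest library. Mbp led in bulk cortex at both ages, whereas Cnp led in both TRAP-Seq fractions by this length, though not by coding length.

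Per exon length the order differed in the TRAP-Seq Input of Ctrl mice, which is also P24 cortex but was lysed and prepared by another protocol. There Cnp led at 188 ± 6.75 CPM per kb (SD, n = 3), ahead of Cldn11 at 86.5, Mbp at 82.8, Mobp at 57.1, Mog at 36.9, Mag at 30.3, Olig2 at 11, Opalin at 5.46 and Pdgfra at 1.32. Cldn11 overlapped Mbp and Mog overlapped Mag. The place of Cnp held with the longest transcript but not with coding length, by which Mbp led the Input at 936 CPM per kb, with Cnp at 543, and Mobp led the IP at 518, with Cnp at 442 and overlapping ranges. The Mbp level was 702 ± 23.8 CPM in this Input (n = 3) and 2050 ± 274 CPM in P24 Ctrl bulk cortex (n = 4), and that of Pdgfra was 13.2 ± 1.90 against 51.0 ± 3.73 CPM. These values come from separate tables and protocols and were not tested against each other.

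**Figure D2:**
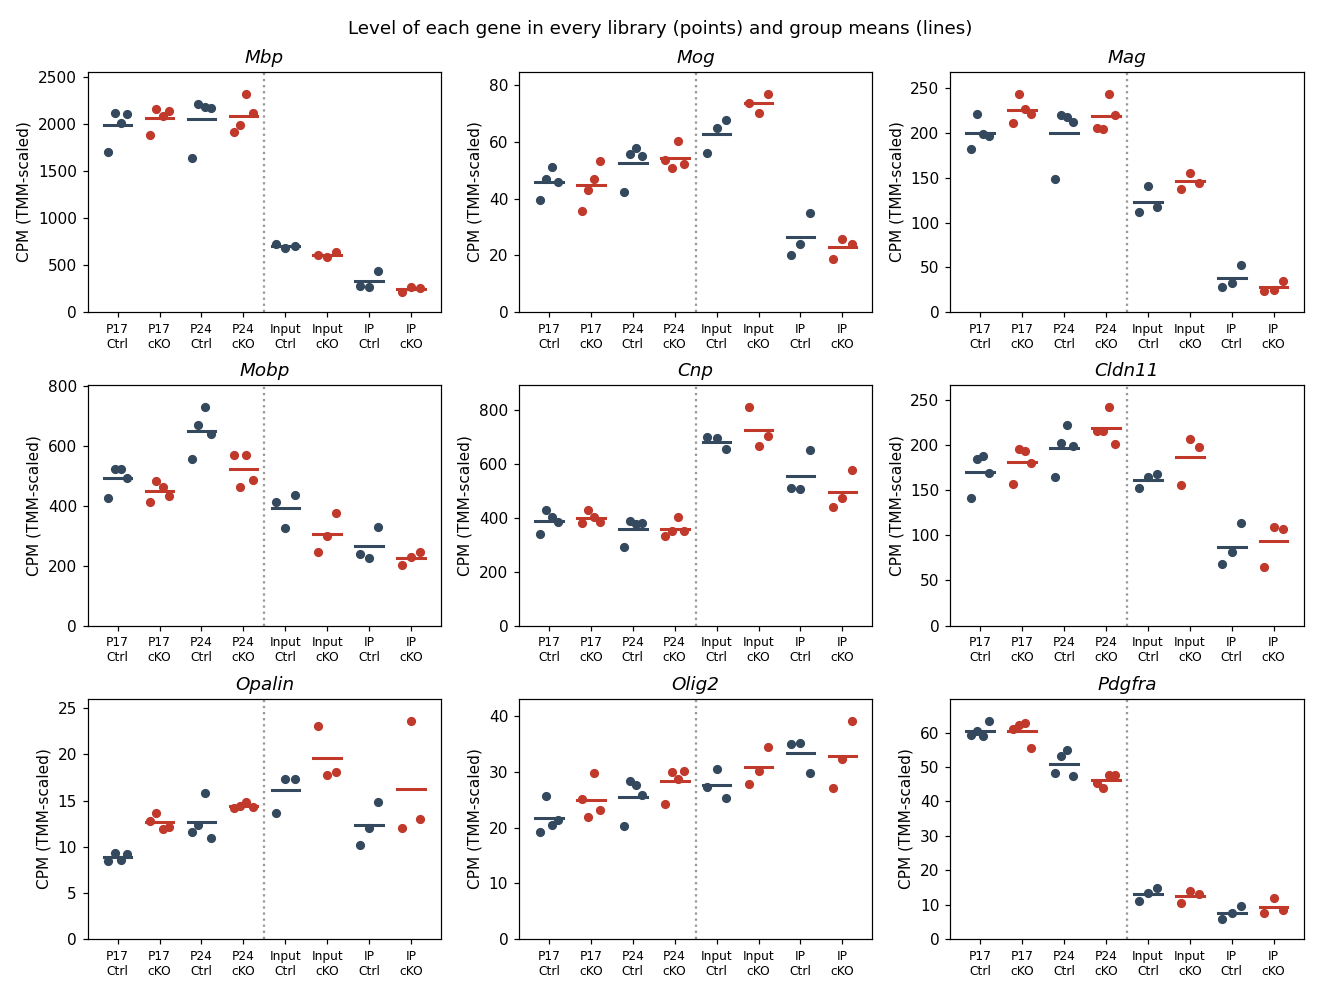
Level of each member in every library, in TMM-scaled CPM, by group, with a point for each library and a line at the group mean; a dotted line parts bulk from TRAP-Seq libraries. The largest steps are those between bulk cortex and the TRAP-Seq fractions and between Input and IP, whereas cKO and Ctrl points overlap in most pairs of groups, with Opalin at P17 (8.88 and 12.6 CPM on average) among the exceptions.

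Between P17 and P24, Ctrl cortex gained Mobp and Opalin transcripts and lost Pdgfra transcripts, and the other 6 members were not called. These 3 of 9 compare with a background of 19.6% of the 22215 genes tested, 9.45% higher and 10.1% lower at P24. The median log2FC of the 9 members was 0.19, beside 0 over all genes tested. Age and experiment cannot be told apart here, since the counts of each age come from a separate table. Whether the ages were sequenced together is not given in the sources used here.

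Mobp stood at 425, 524, 523 and 493 CPM in the P17 Ctrl mice and at 557, 670, 728 and 638 CPM in the P24 Ctrl mice. Every P24 mouse was above every P17 mouse. The log2FC was 0.39 (SE 0.08, adjusted p = 0.00663).

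Opalin stood at 8.47, 9.32, 8.58 and 9.16 CPM at P17 and at 11.6, 12.4, 15.8 and 10.9 CPM at P24. The groups again did not overlap, and P24 library 3 was the highest. The log2FC was 0.50 (SE 0.12, adjusted p = 0.0122).

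Pdgfra stood at 59.4, 60.4, 59.0 and 63.5 CPM at P17 and at 48.4, 53.3, 54.9 and 47.3 CPM at P24. The P24 mice were all below the P17 mice. The log2FC was −0.26 (SE 0.06, adjusted p = 0.0124). Of the tested genes, 23.4% did not overlap between these groups.

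Mbp, the most abundant member, had nearly the same mean at both ages. It stood at 1703, 2119, 2010 and 2111 CPM at P17 and at 1640, 2210, 2180 and 2174 CPM at P24, with library 1 the lowest in each group. Its log2FC was 0.03 (95% interval −0.15 to 0.21), and that of Mag was −0.01 (−0.23 to 0.20). Cnp at −0.13, Mog at 0.19, Cldn11 at 0.20 and Olig2 at 0.22 also missed the threshold (adjusted p between 0.194 and 0.378). The upper bound for Mbp thus lay below the log2FC of Opalin and that of Mobp.

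Library 1 of the Ctrl mice was below the group mean for all 7 myelin members at P24 and at P17, with mean deviations of −0.27 and −0.18 on the log2 scale. It was the lowest of its group for each of them except Opalin at P24, where library 4 was lower. Without library 1 of both Ctrl groups, a choice made after seeing the data, the same number of members, 2 higher and 1 lower, was called.

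In cKO cortex, Pdgfra fell and Cldn11 rose from P17 to P24, 2 of 9 members against a background of 21.8% of 21709 genes (11.1% higher, 10.7% lower). Pdgfra stood at 61.2, 62.3, 62.9 and 55.5 CPM at P17 and at 45.3, 43.8, 47.8 and 47.6 CPM at P24, with no overlap. Its log2FC was −0.41 (SE 0.06, adjusted p = 0.000572). Cldn11 stood at 157, 196, 194 and 180 CPM at P17 and at 216, 215, 242 and 202 CPM at P24. Its log2FC was 0.24 (SE 0.08, adjusted p = 0.0456), a call that was lost in 6 of the 8 fits that left out a library. Opalin, at 0.17 (SE 0.08, adjusted p = 0.159), did not overlap between the ages either, beside 25.2% of all tested genes. Mobp at 0.20, Mog at 0.26, Cnp at −0.18, Olig2 at 0.15, Mag at −0.07 and Mbp at −0.01 missed the threshold.

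Genes of the lineage other than the members were read from lists by stage, beside the same backgrounds of 10.1% lower and 9.45% higher in Ctrl cortex and 10.7% lower and 11.1% higher in cKO cortex. Among 8 genes of premyelinating oligodendrocytes, 7 fell in Ctrl cortex and the list median was −0.39, beside 0 for all genes. Enpp6, a phosphodiesterase of newly formed oligodendrocytes, fell from 23.1 ± 2.22 to 14.7 ± 2.42 CPM (SD, n = 4 each; log2FC −0.67, adjusted p = 0.00146). Gpr17, a receptor of cells leaving the precursor stage, fell from 142 ± 8.90 to 97.0 ± 12.4 CPM (log2FC −0.56), Bmp4, a secreted growth factor, from 4.18 to 2.79 CPM (−0.60), and Lims2 from 158 to 113 CPM (−0.49). Gpr17 and Lims2 share 188 exonic bases on opposite strands, and their reads cannot be fully separated without strand. The count was 4 of 8 when library 1 of both Ctrl groups was left out. In cKO cortex 4 of the 8 fell (median −0.34), among them Bmp4 (−0.84), Enpp6 (−0.76), Tcf7l2 (−0.54), a transcription factor of this stage, and Itpr2 (−0.32).

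Of 18 myelin protein genes, a list that holds the 7 myelin members, 9 rose in Ctrl cortex (median 0.25) and 8 in cKO cortex (median 0.22), and none fell. Hapln2, a link protein of the matrix at nodes of Ranvier, rose from 2.68 ± 0.299 to 7.69 ± 1.8 CPM in Ctrl mice (log2FC 1.51, adjusted p = 0.000245). Gjb1, a connexin of oligodendrocytes, rose from 4.59 to 9.11 CPM (0.97), Mal, a proteolipid of the sheath, from 100 to 152 CPM (0.59), and Tmem88b from 20.1 to 30.3 CPM (0.58). In cKO mice the list was led by Gjb1 (1.45), Hapln2 (1.41), Mal (0.60) and Ermn (0.59).

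**Figure D3:**
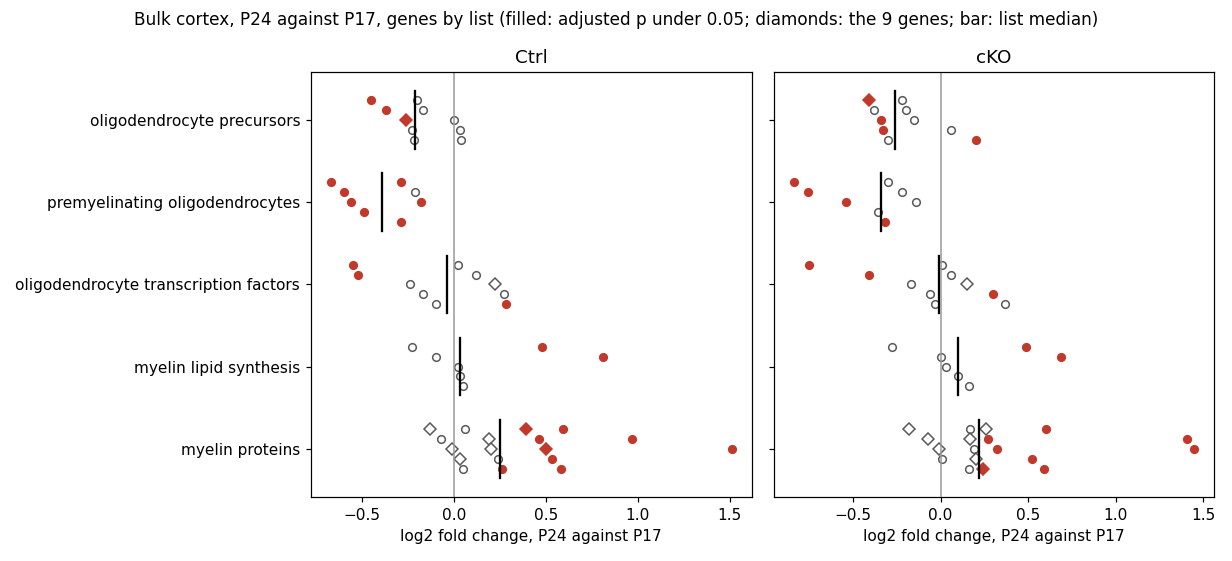
Change from P17 to P24 (log2FC) of the genes of each lineage list in Ctrl and in cKO cortex, with a point for each gene, diamonds for the 9 members, filled symbols for adjusted p under 0.05 and a bar at each list's median. The premyelinating genes lie below 0 in both genotypes, whereas most myelin protein genes lie above it, with Mbp, Mag and Cnp near or below 0.

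The smaller lists held few calls, which are descriptions beside a background of 19.6% called in Ctrl and 21.8% in cKO cortex. Of 10 precursor genes, 3 fell in Ctrl cortex: Neu4 (log2FC −0.45), Sox6 (−0.37) and Pdgfra. In cKO cortex 3 fell, Pdgfra, Matn4 (−0.34) and Cspg4 (−0.33), which encodes the NG2 proteoglycan, and 1 rose, Ptprz1 (0.20), a phosphatase that astrocytes express too. Of 10 transcription factors of the lineage, Nkx2-2 (−0.55) and Zfp488 (−0.52) fell and Myrf (0.28), which drives myelin genes, rose in Ctrl cortex. The same 3 were called in cKO cortex, at −0.75, −0.41 and 0.30. Of 7 genes of myelin lipid synthesis, Aspa, which releases acetate from N-acetylaspartate, and Fa2h, which hydroxylates myelin fatty acids, rose in Ctrl (0.81 and 0.48) and in cKO cortex (0.69 and 0.49). Of the growth factors that act on the lineage, 5 of 7 were tested in Ctrl and 6 in cKO cortex, and Nrg1 fell in both (−0.56 and −0.55). In Ctrl cortex, leaving out any 1 of the 8 libraries gave between 2 and 3 precursor genes lower, between 1 and 2 transcription factors lower and between 0 and 2 higher, and between 0 and 1 growth factors lower, and the adjusted p of Sox6, Myrf and Nrg1 there were 0.0383, 0.0466 and 0.0263.

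No member passed the threshold between cKO and Ctrl bulk cortex at either age. At P24, 0 of 9 members were called by edgeR, beside 1.72% of 22494 genes, 2 members had an unadjusted p under 0.05, and DESeq2 called 1 of 9, beside 2.66% of genes. At P17, 0 of 9 were called by edgeR or DESeq2, beside 0.0943% of 21200 genes, and 2 had an unadjusted p under 0.05. The median log2FC of the members was 0.04 at P24 and 0.07 at P17, beside 0.001 and −0.004 over all genes.

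Mobp was the lowest of the 9 at P24. It stood at 557, 670, 728 and 638 CPM in Ctrl mice and at 569, 463, 568 and 486 CPM in cKO mice. Ctrl library 1 lay within the range of the cKO mice, and the other Ctrl mice were above it. The log2FC was −0.32 (SE 0.09, adjusted p = 0.105, exact permutation p = 0.0857). The call turned with the setting: the adjusted p was 0.00853 with DESeq2, 0.0112 without the filter on low counts, 0.0318 without cKO library 1 and 0.00705 (log2FC −0.43) without library 1 of both groups, a choice made after seeing the data, where 3.08% of genes were called. The choroid plexus sums were lowest in the same 2 libraries. All 6 striatum markers had a log2FC below 0 in P24 cKO mice (median −0.64, between −0.79 and −0.42, none called by edgeR or DESeq2, and none with an unadjusted p under 0.05 in edgeR), and their sums were 243 ± 69.8 CPM in Ctrl (175 to 331) and 166 ± 86.7 CPM in cKO mice (80.4 to 253). The part of either tissue in the Mobp values was not tested.

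Pdgfra in P24 cKO mice had a log2FC of −0.15 (SE 0.06, adjusted p = 0.336), with Ctrl values from 47.3 to 54.9 CPM and cKO values from 43.8 to 47.8 CPM. The other 7 members had log2FC between 0.00 and 0.19. The 95% intervals were −0.15 to 0.19 for Mbp, −0.14 to 0.22 for Mog and −0.17 to 0.16 for Cnp. No member, beside 7.58% of all genes, separated the 4 cKO from the 4 Ctrl mice.

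At P17 Opalin was the member that stood apart. It stood at 8.47, 9.32, 8.58 and 9.16 CPM in Ctrl mice and at 12.8, 13.6, 11.96 and 12.2 CPM in cKO mice. All 4 cKO mice were above all 4 Ctrl mice, as was the case in either direction for 2.92% of genes. The log2FC was 0.52 (SE 0.09, adjusted p = 0.0981, exact permutation p = 0.0286, the smallest possible).

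Same-numbered P17 libraries deviated together. In a fit blocked on that number 2 of 9 members were called, beside 0.514% of genes. These were Opalin (adjusted p = 0.0186) and Mag (log2FC 0.19, adjusted p = 0.0312). Mag stood at 183, 222, 199 and 196 CPM in Ctrl and at 212, 244, 227 and 222 CPM in cKO mice, higher in the cKO mouse of each number. The other 7 members had log2FC between −0.12 (Mobp) and 0.21 (Olig2) at P17.

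**Figure D4:**
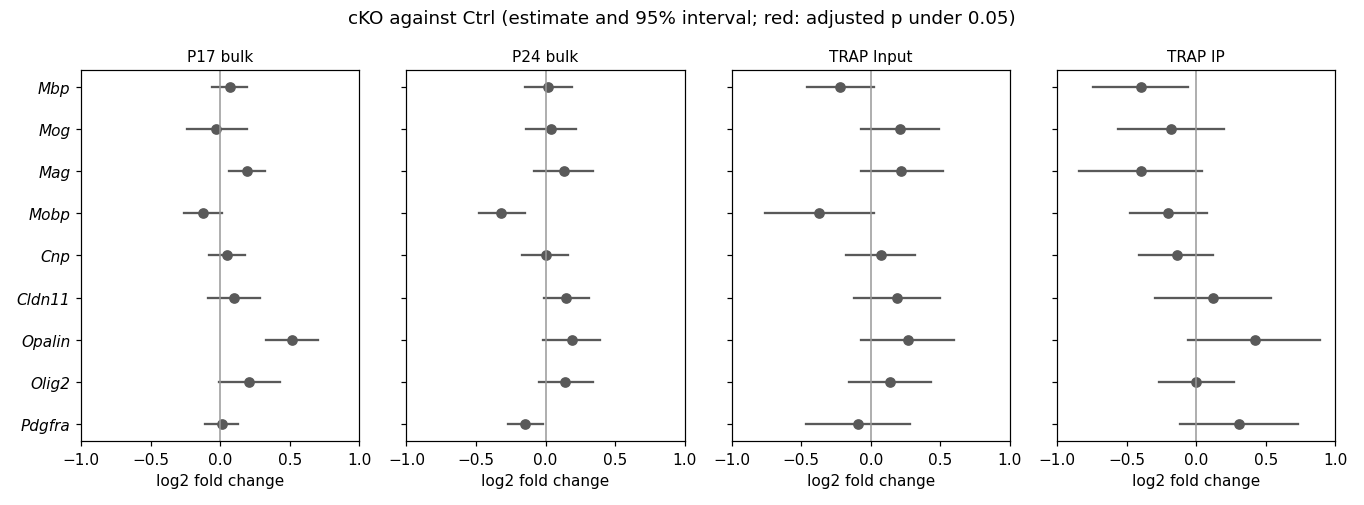
Log2FC of cKO against Ctrl for each member in P17 bulk, P24 bulk, TRAP-Seq Input and TRAP-Seq IP, with 95% intervals. Opalin lies above 0 at P17 and Mobp below 0 at P24, and the intervals of the TRAP-Seq fractions, with 3 mice a group, are wider.

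Among the other lineage genes, 1 was called in P24 cortex, Ptprz1, which rose from 221 ± 14.7 to 269 ± 12.3 CPM (log2FC 0.28, adjusted p = 0.0265). In edgeR, 0 of the 18 myelin protein genes, 7 lipid genes, 8 premyelinating genes and 10 transcription factors were called at P24, where 5, 0, 1 and 0 of them had an unadjusted p under 0.05. Leaving out 1 library gave between 0 and 2 myelin protein genes lower and between 0 and 1 higher at P24, and the precursor genes called, Ptprz1 in the full set, then numbered between 0 and 1. DESeq2 called 3 of the 18 myelin protein genes lower at P24, Mobp among them, and none of the other 3 lists. At P17, 0 genes of these lists or of the 10 precursor genes were called by either tool, and 4 myelin protein genes had an unadjusted p under 0.05 in edgeR. Gfap, a marker of reactive astrocytes, rose at both ages (log2FC 2.51 at P24, adjusted p = 2.18e-07, and 1.03 at P17, adjusted p = 8.57e-05). Of the 8 astrocyte markers, a list without Gfap, 2 were called higher and 3 lower at P24 (median 0.03). At P17 0 of them were called (median 0.02). The cKO mice also carry mGFAP-Cre, which the genotypes given for Ctrl mice do not include, and its part was not tested.

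The test of whether the cKO effect differed between the ages called 0 of 9 members in edgeR and in DESeq2, beside 0.0470% of 23395 genes in edgeR. The member with an unadjusted p under 0.05 in edgeR was Opalin (interaction −0.33, SE 0.14, adjusted p = 0.727). Its mean went from 8.88 to 12.7 CPM in Ctrl mice and from 12.6 to 14.4 CPM in cKO mice. That its cKO effect was larger at P17 is thus not shown.

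In the TRAP-Seq IP of Ctrl mice, 8 of 9 members were lower than in the Input, beside 71.0% of 24384 genes called in either direction and 35.7% called lower. The median log2FC of the members was −0.83, beside −0.03 over all genes. The same comparison raised all 8 astrocyte markers (median 3.52) and lowered 7 of 8 neuron markers (median −1.73) and 5 of 6 microglia markers (median −1.37). Astrocyte marker sums were between 848 and 978 CPM in the Input and between 8770 and 11500 CPM in the IP.

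The members differed from each other in how far they fell. Mag stood at 112, 141 and 118 CPM in the Input and at 27.7, 32.1 and 52.8 CPM in the IP of mice 1, 2 and 3. This is a level of 0.295 times the Input (log2FC −1.76, SE 0.21, adjusted p = 1.06e-05). Mog was at 0.407 times the Input (−1.30) and Mbp at 0.455 times (−1.14).

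Mbp stood at 724, 677 and 705 CPM in the Input and at 280, 271 and 434 CPM in the IP. IP library 3 was the highest of the 3 for Mbp and for Mag, and for all 7 myelin members it was above the group mean, by 0.38 on the log2 scale on average. Cldn11 was at 0.526 times the Input (−0.93), Pdgfra at 0.561 times (−0.83) and Mobp at 0.656 times (−0.61).

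Opalin and Cnp fell least. Opalin was at 0.747 times the Input (−0.42, SE 0.16, adjusted p = 0.0287) and Cnp at 0.791 times (−0.34, SE 0.12, adjusted p = 0.0205). The call was lost for Opalin in 4 of the 6 fits that left out a library and for Cnp in 3 of them. Cnp stood at 700, 696 and 655 CPM in the Input and was still at 511, 508 and 654 CPM in the IP.

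Olig2, alone among the 9, was not called. It stood at 27.3, 30.6 and 25.4 CPM in the Input and at 35.1, 35.2 and 29.8 CPM in the IP, with overlap between the fractions (log2FC 0.22, SE 0.11, adjusted p = 0.101). It passed the threshold, as higher in the IP, with library size alone (adjusted p = 0.0253) and without the filter (0.0460), and also without Input library 2 (0.0471) or without IP library 3 (0.0185). In the IP of Ctrl mice the order per kb was Cnp at 153, Cldn11 at 46.8, Mbp at 38.8, Mobp at 38.6, Mog at 15.5, Olig2 at 13.2, Mag at 9.22, Opalin at 4.19 and Pdgfra at 0.759 CPM per kb. Cnp, Opalin and Pdgfra were each separated from their neighbours in this order.

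**Figure D5:**
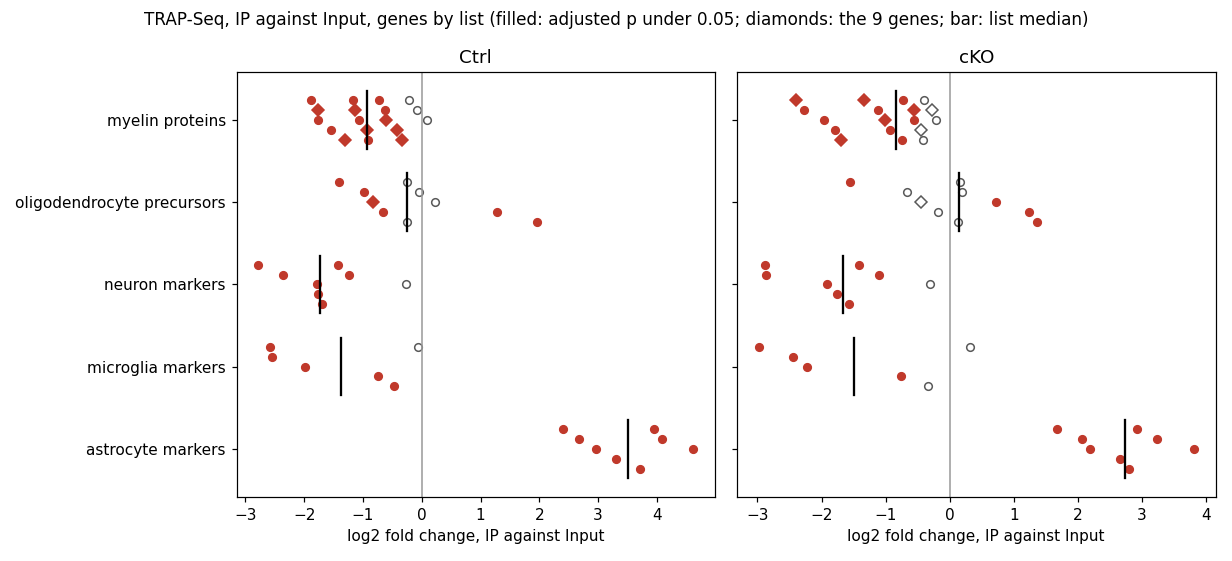
IP against Input difference (log2FC) of the genes of 5 lists in Ctrl and in cKO mice, with a point for each gene, diamonds for members, filled symbols for adjusted p under 0.05 and a bar at each list's median. The 7 myelin members and Pdgfra lie below 0 in both genotypes, like the neuron markers, whereas all 8 astrocyte markers lie above 0.

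In cKO mice, 5 of 9 members were lower in the IP than in the Input, beside 56.3% of 24010 genes called and 28.5% called lower. These were Mag at 0.190 times the Input (log2FC −2.40), Mog at 0.309 times (−1.69), Mbp at 0.398 times (−1.33), Cldn11 at 0.497 times (−1.01) and Cnp at 0.681 times (−0.56). Mobp (−0.45), Pdgfra (−0.45), Opalin (−0.28) and Olig2 (0.08) missed the threshold. Leaving out 1 library gave between 4 and 7 members lower. The 7 came without Input library 1 of the cKO mice, where 16819 of 25059 genes were called. Mobp (−0.59, adjusted p = 0.00256) and Pdgfra (−0.57, adjusted p = 0.0259) were then among them. With the replicate number, taken to be the mouse, as a block the counts were again 8 and 5 of 9, beside 71.1% and 53.9% of genes. The test of whether the difference between the fractions changed with genotype called 0 of 9 members in edgeR and in DESeq2, beside 0.0582% of 25767 genes in edgeR, and no member had an unadjusted p under 0.05. Mag came nearest, at −0.63 (SE 0.30, adjusted p = 0.588). Without Input library 1 of the cKO mice, that test again called 0 of 9 members in edgeR, beside 432 of 26448 genes.

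Of the 18 myelin protein genes, 15 were lower in the IP of Ctrl mice (median −0.92) and 13 in that of cKO mice (median −0.84), among them Plekhh1 (−1.76 and −1.96). Lineage transcription factors went both ways in Ctrl mice, 4 of 10 lower and 2 higher. This count and those of the 3 lists that follow are descriptions beside the 71.0% of all genes called and the 35.7% called lower. Myrf fell from 32.6 ± 6.41 to 4.95 ± 0.929 CPM (log2FC −2.76), Sox10 was at −1.83 and Zfp488 at −1.23, and Nkx2-2 was higher, at 1.47. Of 10 precursor genes, 4 were lower, among them Susd5 (−1.40) and Cspg4 (−0.98), and 2 were higher, Ptprz1 (1.96) and Sox6 (1.28). Of 8 premyelinating genes, 4 were lower, led by Gpr17 (−1.41) and Lims2 (−1.09), and Tcf7l2 was higher (1.89). Of 7 lipid genes, Fa2h (−2.03), Gal3st1 (−1.64) and Ugt8a (−0.87) were lower and Aspa (0.90) was higher.

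Between genotypes, the IP fraction called 0 of 9 members in edgeR and in DESeq2, although 20.0% of 23863 genes were called (11.6% higher, 8.42% lower). In each of these tools 1 member had an unadjusted p under 0.05. The median log2FC of the members was −0.14, beside −0.02 over all genes.

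Mbp stood at 280, 271 and 434 CPM in Ctrl and at 212, 267 and 256 CPM in cKO mice. The groups did not overlap, as was the case for 37.8% of genes, but Ctrl library 3 stood far above the others. The log2FC was −0.40 (SE 0.17, adjusted p = 0.129). It passed the threshold with library size alone (−0.52, adjusted p = 0.0393), without the filter (0.0194) and with the replicate block (0.0443). Mag was also at −0.40 (SE 0.22, adjusted p = 0.238), with values of 23.9, 25.1 and 34.97 CPM in cKO mice. Mag passed without the filter (0.0454) and with the replicate block (0.0157).

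Opalin stood at 12.03, 23.7 and 13.0 CPM in the cKO IP against 10.2, 12.1 and 14.8 CPM in the Ctrl IP, and Pdgfra at 7.43, 12 and 8.35 against 5.86, 7.46 and 9.50 CPM. Both had the highest value in cKO library 2, in which microglia markers also summed to 253 CPM, beside 137 and 157 CPM in the other cKO IP libraries. Whether other cells in that library had a part was not tested. The log2FC was 0.42 for Opalin (adjusted p = 0.255) and 0.31 for Pdgfra (adjusted p = 0.359), and Mog, Mobp, Cnp, Cldn11 and Olig2 lay between −0.20 and 0.12.

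In the Input, 0 of 9 members were called by edgeR or DESeq2, beside 0.109% of 23827 genes, and none had an unadjusted p under 0.05 in either. Mbp was lower in all 3 cKO mice than in the Ctrl mice (602, 586 and 643 against 724, 677 and 705 CPM; log2FC −0.22, adjusted p = 0.812). Mog (0.21) and Opalin (0.27) were higher in all 3 (adjusted p = 0.812 each), so that 3 of 9 members did not overlap between the groups, beside 11.8% of all genes. Mobp, at 412, 325 and 436 CPM in Ctrl and 246, 298 and 375 CPM in cKO mice, had a log2FC of −0.37 (SE 0.20, adjusted p = 0.812).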

How the data were processed

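Bulk RNA-Seq (16 libraries) and TRAP-Seq (12 libraries) of mouse cortex were compared. The authors aligned reads to mm10 (RNA STAR, Galaxy). For each experiment the deposited table gives unnormalized read counts by Ensembl identifier. The counting tool, its strand setting and the annotation are not given in the sources used here. Each table holds 53342 identifiers, and 1 row was left out because its identifier is cut short in the P24 table. Symbols and positions came from GENCODE M21.

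The main test was that of edgeR 4.0.16 in R 4.3.3 (TMM, filterByExpr with a minimum count of 10, glmQLFit and glmQLFTest, two-sided), with Benjamini-Hochberg adjustment over all genes tested and a threshold of 0.05. Intervals are the log2FC ± 1.96 SE. Single members were also compared with the exact permutation test on log2(CPM + 0.5). Alternatives were DESeq2 1.42.0, RLE factors, library size alone, no filter, a replicate block, a joint fit and leaving out each library. The counts of replicate libraries differed by more than sampling noise in every group. The fits were tested on simulated data.

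Input and IP of a number were taken to be from the same mouse. Each mouse gave an Input and an IP, but the sources do not state that the numbers match. In Ctrl mice 3 of 3 IP libraries correlated best with the Input of their own number. In cKO mice 0 of 3 did (mean r −0.0096 for the same number, beside 0.00411 for other numbers). Replicate numbers carry no stated meaning beyond this. At P17 the deviations of same-numbered cKO and Ctrl libraries were correlated across genes in all 4 pairs (r between 0.179 and 0.421). Each cKO library correlated best with the Ctrl library of its own number, so the number was taken to pair these samples. The best match was counted from the cKO side only.

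The members and lists were chosen with earlier results of these data known. Named genes were the 9 members, up to 4 genes of each list with the largest log2FC among those called, and the 10 genes most like the members. Gfap, Hapln2 in the cKO comparisons and single alternative calls were named after their values were seen. The targeted gene and some other genes are not reported here.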

Additional observations from a re-analysis of the deposited data

Results flagged for a closer look

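Mbp, Cnp and Mag each had a single P24 Ctrl library far below the others. In library 1 of this group, the gap to the next library divided by the range of the group was 0.936 for Mbp (1640 CPM, beside 2174 to 2210 CPM), 0.908 for Cnp (291 CPM, beside 379 to 388 CPM) and 0.886 for Mag (148 CPM, beside 212 to 220 CPM). All 3 ratios are above Dixon's 95% critical value for 4 libraries. These were 3 of 36 groups tested over the members, and chance flags about 1 in 20 where tests are independent. Here all 3 flags are of the same library and the members share libraries, so the count cannot be weighed against that share. Without this library the P24 cKO log2FC was −0.07 for Mbp, −0.09 for Cnp and 0.01 for Mag (adjusted p between 0.651 and 0.968). Mobp, which was not flagged, was then at −0.38 (adjusted p = 0.0541).

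The astrocyte marker Aldh1l1 had an effect of genotype that differed between the ages in bulk cortex (interaction 0.94, SE 0.16, adjusted p = 0.0323). It stood at 64.1 ± 3.51 CPM in Ctrl and 75.2 ± 3.88 CPM in cKO mice at P17, and at 52.2 ± 4.41 and 119 ± 26.3 CPM at P24 (SD, n = 4 each). Of the 8 astrocyte markers it was the 1 called in that test, where 4 lay above 0 and 4 below 0 (median −0.04). Leaving out 1 library gave between 0 and 2 of the 8 called higher and between 0 and 1 called lower. Age and experiment cannot be told apart here.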

How the results depend on the processing

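Each member's log2FC in 10 comparisons was recomputed under the alternatives. Of these values, 1207 kept their direction and their side of the threshold, 39 that were never called changed sign, 29 passed the threshold and 21 lost it, and none that was called reversed.

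The count of members called moved as follows. For cKO against Ctrl it went from 0 to 1 at P24 with DESeq2, with no filter and without library 1 of both groups (chosen after seeing the data), and lay between 0 and 1 when a library was left out. At P17 it went from 0 to 2 with the replicate block. In the IP it went from 0 to 1 with library size alone, beside 5535 of 23863 genes. It went to 2 with no filter (5369 of 44574 genes) or the replicate block (6740 of 23863 genes). From P17 to P24 it went from 3 to 5 in Ctrl mice with the replicate block, beside 4319 of 22215 genes. Leaving out a library there gave between 3 and 4. In cKO mice it went from 2 to 1 with RLE factors (4722 of 21709 genes) or a joint fit (5450 of 23395). It went to 3 with DESeq2 (4200 of 21709 genes) and to 4 with no filter (5121 of 44547). Leaving out a library in cKO mice gave between 1 and 2. For IP against Input in Ctrl mice it went from 8 to 6 in a joint fit, beside 16049 of 25767 genes. With no filter 8 members were lower and 1 was higher, beside 18181 of 44650 genes. The count lay between 6 and 9 in Ctrl mice when a library was left out, beside between 16157 and 17296 genes. In cKO mice it then lay between 4 and 7, beside between 10973 and 16819 genes. The cause of these moves was not tested.

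Input and IP of a number were taken to share a mouse, and with that number as a block the counts were again 8 and 5. In the other comparisons outside P17 the libraries share only a number. In the IP between genotypes, all 3 cKO libraries correlated best with the Ctrl library of their own number. There the block called Mbp (adjusted p = 0.0443) and Mag (0.0157), 2 of 9 members beside 6740 of 23863 genes. Besides these 2, the 2 at P17 and the 5 with age in Ctrl mice, the block changed no count of members.

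Over all genes, the P24 count was 388 and became 598 with DESeq2, 619 with no filter and 694 without library 1 of both groups. The P17 count was 20 and became 41, 55 with no filter and 109 with the block. The IP count was 4782 and became 1684 in a joint fit. The Input count was 26 and became 127 with DESeq2 or a joint fit, 112 with no filter and 8 with the block. The bulk interaction count was 11 and became 54, 62 and 55, and the TRAP-Seq interaction count was 15 and became 285, 189 and 6, with DESeq2, no filter and the block, and 10 with RLE factors. Leaving out 1 library gave between 216 and 952 genes at P24, where the 952 came without cKO library 1. It gave between 11 and 19 at P17, between 2638 and 4811 in the IP and between 4 and 112 in the Input. The bulk interaction then called between 4 and 149 genes and the TRAP-Seq interaction between 3 and 432. Library size alone moved the median of all genes in the IP to −0.13 and the share of higher calls from 58.0% to 36.2%, and from 48.3% to 37.8% in Ctrl mice with age. The members had at least 79 counts in every library, and how much counting error and the spread between mice each add to the intervals was not tested.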

Other observations

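In the IP fraction, some lineage genes outside the 9 members were called between cKO and Ctrl mice, where 20.0% of all tested genes were called (11.6% higher, 8.42% lower). The counts below are descriptions read beside these shares, and none is shown to be particular to the lineage. Of 7 growth factors that act on the lineage, 3 rose, and 3 or 4 were higher in every fit that left out a library. Cntf, a cytokine that acts on oligodendrocytes, rose from 3.46 ± 0.121 to 12.6 ± 3.24 CPM (SD, n = 3 each; log2FC 1.89, adjusted p = 0.000175), Lif, a related cytokine, from 2.03 to 3.91 CPM (0.96) and Nrg1 from 91.4 to 145 CPM (0.68). Cntf shares 847 exonic bases with Zfp91 on its own strand, so reads there cannot be assigned to a gene with certainty. With all TRAP-Seq libraries in a joint fit, 2 of the 7 rose.

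Of 10 transcription factors of the lineage, Sox8 fell from 112 ± 8.35 to 66.0 ± 4.86 CPM (log2FC −0.74, adjusted p = 0.000802) and Nkx2-2 from 16.2 to 10.2 CPM (−0.64). Both were higher in the IP than in the Input of Ctrl mice (0.79 and 1.47). The test of whether this difference changed with genotype did not pass for Sox8 (−0.72, adjusted p = 0.141) or Nkx2-2 (−0.72, adjusted p = 0.468). All 8 astrocyte markers moved the same way in that test (median −0.78, between −1.01 and −0.61, 5 with an unadjusted p under 0.05, 0 called by edgeR and 1 by DESeq2). Their median IP against Input log2FC was 3.52 in Ctrl and 2.73 in cKO mice. For cKO against Ctrl their median was 0.62 in the Input (between −0.11 and 1.27) and −0.18 in the IP (between −0.95 and 0.48). Their part in the values of Sox8 and Nkx2-2 was not tested. Olig2, at 33.4 ± 3.08 and 32.9 ± 6.10 CPM, had a log2FC of 0.00 (95% interval −0.27 to 0.27).

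Of 8 premyelinating genes, Gpr17 (0.84), Lims2 (0.81) and Bmp4 (0.68) were called higher and Tcf7l2 (−0.48) lower in the cKO IP, and of 10 precursor genes Vcan (0.79) and Lhfpl3 (0.71) were called higher. Without cKO library 2, the library with the highest Opalin and Pdgfra, 0 of either list were called by edgeR. Without Ctrl library 1, 2 or 3 the premyelinating genes called higher were also 0, as they were in the joint fit, and without Ctrl library 1 so were the precursor genes. DESeq2 called 1 premyelinating gene and 3 precursor genes higher. Plekhh1 (−0.48) was the one myelin protein gene called, and Elovl7 (0.91) the one lipid gene. In the Input, 0 genes of the 6 lineage lists were called by edgeR or DESeq2, with an unadjusted p under 0.05 in edgeR for 3 myelin protein genes, 3 growth factors and 1 precursor gene.

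Hapln2, named here after its values were seen, was lower in cKO cortex at both ages with no overlap between the groups. It stood at 1.68 ± 0.487 CPM beside 2.68 ± 0.299 CPM in Ctrl mice at P17 (log2FC −0.65, adjusted p = 1.00) and at 4.57 ± 0.853 CPM beside 7.69 ± 1.8 CPM at P24 (−0.74, adjusted p = 0.0716). Neither passed the threshold, and the P17 values rest on between 10 and 28 counts a library.

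The genes whose profile over the 8 group means was most like the median profile of the 7 myelin members, among 21183 genes, were Itm2c, Cldn11, Car11, Ewsr1, Zfp579, Gm15943, Xbp1, Il1r2, Abhd12 and Maz. Likeness is the root mean square difference of centred log2(CPM + 0.5) and lay between 0.04 and 0.08. Only Cldn11 of these is in a lineage list, and it is one of the 7 genes that make the median profile. The other 6 ranked 1133 (Mog), 2104 (Mobp), 7549 (Opalin), 10542 (Cnp), 10766 (Mag) and 13922 (Mbp), so the median profile does not describe most of the members one by one. The members' median profile lay at 0.18 in the Input and −0.69 in the IP of Ctrl mice, relative to the mean of the 8 groups.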
